A study of Mus musculus with 11 samples.

Results

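The 40 genes described here are a set of DNA replication and mitosis genes, picked out by symbol from the 20640 gene symbols in the table. They fall into 16 S-phase genes, which license and copy DNA or make its building blocks, 3 G1 cyclins, which drive entry into the cycle, and 21 mitosis genes. All 40 symbols were present in the table. The 11 libraries are bulk RNA-seq of YFP+ muscle stem cells sorted from the limb muscle of Pax7-CreERT2;Rosa-YFP mice. In these mice tamoxifen switches on YFP in cells in which Pax7 drives the Cre, and all mice had oral tamoxifen at 12 to 14 weeks of age. The sort kept YFP+ cells that lacked the lineage markers Sca-1, CD31 and CD45. Every group shares this genotype, treatment and sort.

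The 4 groups are middle-aged cells (3 libraries) and 3 fractions of geriatric cells gated on surface VCAM1, a marker of quiescent muscle stem cells: VCAM1-high (3 libraries), VCAM1-low (2 libraries) and VCAM1-negative (3 libraries). The middle-aged mice were 10 to 14 months old by the sample labels, whereas the protocol gives 12 to 14 months; the geriatric mice were older than 28 months. The lower gates are called VCAM1-mid and VCAM1-low/- in the series' design text. The middle-aged cells were not split by VCAM1, so that age, gate and time since YFP labelling change together and cannot be told apart in any comparison with them. Nothing in the labels says that replicates come from separate mice, so a p-value reflects only how far these libraries scatter, and that scatter may be technical.

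Values are RPKM, read counts scaled to gene length and to the size of the library. Stem cell markers were present in every library: all 8 of the fixed list, which includes Pax7, Myf5 and Vcam1, were at 1 RPKM or more. Vcam1 was at 230 to 344 RPKM in the middle-aged, 188 to 418 in the VCAM1-high, 115 to 177 in the VCAM1-low and 48.6 to 122 in VCAM1-negative cells. Depth estimated from the steps between low values was 20050000 to 29850000 reads per library. A total of 11568 genes reached 1 RPKM in at least 2 libraries and were tested.

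Adult muscle stem cells rest outside the cell cycle and re-enter it after injury or culture. In G1, D cyclins with CDK4 or CDK6 and E cyclins with CDK2 release E2F factors, which turn on the genes for the MCM helicase, its loaders and nucleotide synthesis. Later, FOXM1 and MuvB complexes turn on the genes for cyclin B, CDK1, the spindle and the chromosomal passenger complex, and these are silent in resting cells. RNA of S-phase genes can therefore be present without RNA of mitosis genes. In bulk RNA, fewer cycling cells and less RNA per cycling cell cannot be told apart.

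Promoter windows were searched for short motifs, which differed in frequency between the role groups. RefSeq windows on the GRCm38.p6 build, from 250 bases before to 50 bases after the start, were given for 32 of the 40 genes. No window was used for Ccna2, Mcm4, Ccnd1, Aurkb, Tpx2, Kif20a, Gins2 and Ccne2. The submitters' processing notes name another build, GRCm39, for the expression data, and no coordinate was carried between the builds. The CHR element, searched as TTTGAA on both strands, is the core of the sites bound by MuvB complexes, and CCAAT boxes, searched as CCAAT on both strands, bind NF-Y. E2F sites were searched as TTTCCCGC or TTTGGCGC on both strands. Each motif was counted on its own, so that matches of different motifs may share bases. A gene with several windows was counted if any of them held the motif.

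The CHR element was in the windows of 12 of 17 mitosis genes (70.6%), 1 of 14 S-phase genes (Mcm2) and 20.2% of all 27025 genes with a window. Within 50 bases of the start, it was in 11 of 17 mitosis genes (64.7%), 0 of 14 S-phase genes and 5.72% of all genes. A CCAAT box was in 15 of 17 mitosis genes (88.2%), 9 of 14 S-phase genes (64.3%) and 41.1% of all genes. CHR and CCAAT stood together in 12 of 17 mitosis genes, against 7.97% of all genes. The E2F letters were in 7 of 14 S-phase genes, 0 of 17 mitosis genes and 1.80% of all genes. Among the 9270 genes tested for expression that had a window, CHR was in 14.2% and CCAAT in 43.0%. Both stood together in 5.80% of them, and the E2F letters were in 3.52%. These matches describe the letters and show no binding.

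The mitosis promoters shown first are those of Cdc20 and Ccnb2, the genes with the highest mean RPKM among those with both a CHR element and a CCAAT box. Capitals mark CHR (TTTGAA) and CCAAT, and the last 25 bases lie after the start. Cdc20 (chr4:118437319-118437593, minus strand) encodes the activator of the anaphase-promoting complex, and Ccnb2 (chr9:70421530-70421804, minus strand) encodes cyclin B2, a partner of CDK1.
Cdc20: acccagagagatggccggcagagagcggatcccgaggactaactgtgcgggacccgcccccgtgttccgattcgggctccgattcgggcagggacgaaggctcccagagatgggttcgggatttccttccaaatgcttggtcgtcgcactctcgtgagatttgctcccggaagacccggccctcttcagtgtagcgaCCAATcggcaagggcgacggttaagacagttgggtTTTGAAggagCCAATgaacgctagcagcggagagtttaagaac
Ccnb2: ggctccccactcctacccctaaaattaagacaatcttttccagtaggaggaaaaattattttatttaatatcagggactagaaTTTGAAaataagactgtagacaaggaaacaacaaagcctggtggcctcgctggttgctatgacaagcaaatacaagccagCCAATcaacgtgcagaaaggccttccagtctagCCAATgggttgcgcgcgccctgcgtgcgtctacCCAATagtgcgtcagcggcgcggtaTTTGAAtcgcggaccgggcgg

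In Cdc20 the CHR element begins 18 bases before the start, and in Ccnb2 the nearer of its CHR elements begins 5 bases after it. For 5 other mitosis genes, 30 bases around the CHR element nearest the start are shown, and the bases beside it were not compared: Bub1b (chr2:118598231-118598260, plus strand), Prc1 (chr7:80294434-80294463, plus strand), Aurka (chr2:172370521-172370550, minus strand), Ube2c (chr2:164769888-164769917, plus strand) and Top2a (chr11:99024195-99024224, minus strand). In Ube2c and Top2a the element is on the other strand and reads TTCAAA.
Bub1b: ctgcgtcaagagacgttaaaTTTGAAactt
Prc1: cctctggctcggTTTGAAttccgcggggtc
Aurka: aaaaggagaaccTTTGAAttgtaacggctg
Ube2c: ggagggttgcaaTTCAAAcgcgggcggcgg
Top2a: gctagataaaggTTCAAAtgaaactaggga

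The S-phase promoters shown are those of Mcm7 (chr5:138171859-138172133, minus strand) and Mcm6 (chr1:128359681-128359955, minus strand), subunits of the MCM helicase and the genes with the highest mean RPKM among S-phase genes with E2F letters, which are in capitals. The match in Mcm7 is on the other strand and reads GCGGGAAA, and Mcm6 has 2 matches on the strand shown. Another window of Mcm7, at a different start, held no E2F letters.
Mcm7: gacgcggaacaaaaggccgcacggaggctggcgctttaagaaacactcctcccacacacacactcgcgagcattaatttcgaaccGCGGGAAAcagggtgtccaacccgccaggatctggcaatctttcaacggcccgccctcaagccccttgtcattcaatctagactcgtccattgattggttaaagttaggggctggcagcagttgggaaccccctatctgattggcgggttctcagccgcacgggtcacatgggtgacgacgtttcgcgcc
Mcm6: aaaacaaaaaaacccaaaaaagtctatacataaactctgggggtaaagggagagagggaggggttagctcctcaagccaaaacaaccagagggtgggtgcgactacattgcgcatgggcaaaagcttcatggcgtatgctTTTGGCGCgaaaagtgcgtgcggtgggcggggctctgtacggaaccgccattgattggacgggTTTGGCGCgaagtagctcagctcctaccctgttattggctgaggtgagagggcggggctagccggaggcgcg

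Next in level were Mcm3 (chr1:20820275-20820304, minus strand), Cdt1 (chr8:122568035-122568064, plus strand), which loads the helicase, and Mcm5 (chr8:75109349-75109378, plus strand), shown as 30 bases around the E2F letters nearest the start.
Mcm3: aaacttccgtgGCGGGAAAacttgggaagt
Cdt1: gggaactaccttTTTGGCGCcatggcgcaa
Mcm5: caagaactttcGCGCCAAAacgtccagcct

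Most S-phase genes were expressed in every library, while mitosis genes were low in most libraries. In the 9 libraries other than middle-aged library 1 and VCAM1-high library 3, 13 or 14 of the 16 S-phase genes reached 1 RPKM. In the same 9 libraries, 13 of the 21 mitosis genes reached 1 RPKM in middle-aged library 3 and 5 to 8 did so in the others. In middle-aged library 1, 16 S-phase and 19 mitosis genes reached 1 RPKM, and in VCAM1-high library 3 the numbers were 16 and 18. The mean of log2(RPKM + 1) over S-phase genes exceeded that over mitosis genes by 1.72 to 2.59 in every library.

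**Figure D1:**
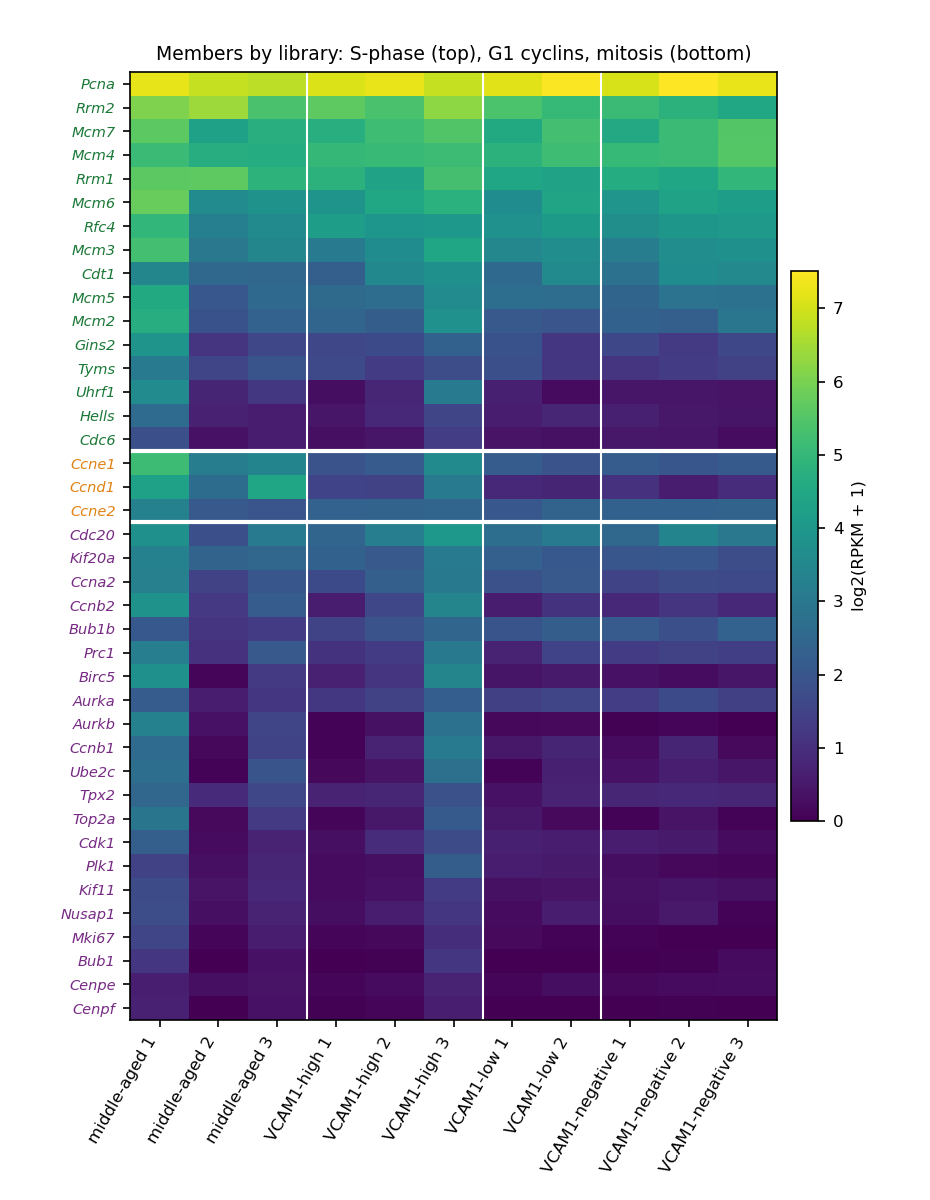
Level of each of the 40 genes (rows, by role and then by mean level) in each of the 11 libraries (columns), as log2(RPKM + 1). Most S-phase genes at the top are bright in all columns, whereas Cdc6, Hells and Uhrf1 are low outside middle-aged library 1 and VCAM1-high library 3, and most mitosis genes at the bottom are brightest in the same libraries.

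The summed RPKM of the 21 mitosis genes was 117, 15.6 and 40.7 in the 3 middle-aged libraries. It was 18.2, 29.5 and 102 in the VCAM1-high, 21.3 and 27.5 in the VCAM1-low, and 19.9, 26.8 and 22.5 in the VCAM1-negative libraries. Middle-aged library 1 and VCAM1-high library 3 therefore stood apart from their own groups, and the other libraries of those groups lay among or near the VCAM1-low and VCAM1-negative ones, with middle-aged library 3 between. These libraries carry no label that sets them apart.

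The S-phase mean of log2(RPKM + 1) was 4.58 in middle-aged library 1 and 3.97 in VCAM1-high library 3, against 3.05 to 3.33 in the other 9 libraries. The mitosis mean was 2.42 and 2.25 in those libraries, 1.36 in middle-aged library 3 and 0.63 to 0.98 in the other 8. The gap between the role groups was narrowest, at 1.72, in VCAM1-high library 3 and was 1.80 in middle-aged library 3. By group, the S-phase mean was 3.597 ± 0.86 (SD, n = 3) in the middle-aged group, 3.47 ± 0.44 (n = 3) in the VCAM1-high, 3.17 ± 0.060 (n = 2) in the VCAM1-low and 3.21 ± 0.14 (n = 3) in the VCAM1-negative group. The mitosis mean was 1.47 ± 0.90, 1.30 ± 0.84, 0.83 ± 0.12 and 0.78 ± 0.075 in the same order. The spread was thus widest in the groups that hold the libraries standing apart.

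**Figure D2:**
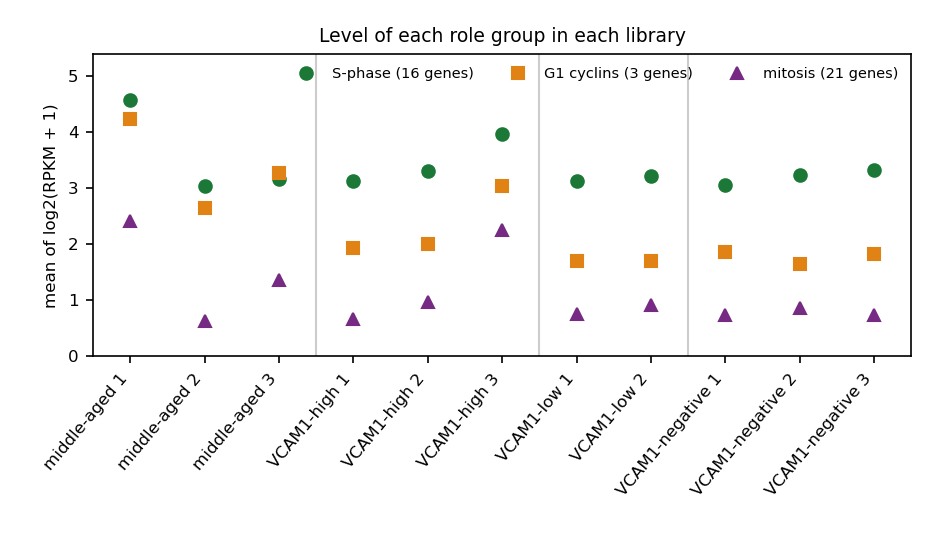
Mean of log2(RPKM + 1) over the 16 S-phase genes (circles), the 3 G1 cyclins (squares) and the 21 mitosis genes (triangles) in each library. The mitosis mean is 2.42 in middle-aged library 1 and 2.25 in VCAM1-high library 3, and 1.36 or lower elsewhere.

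Middle-aged library 1 and VCAM1-high library 3 were the 2 highest libraries for 20 of the 21 mitosis genes, for 8 of the 16 S-phase genes and for 2 of the 3 G1 cyclins. Over all genes tested, this was so for 6.44%, but the libraries were singled out after their mitosis levels were seen, so the shares carry no test. The exception among mitosis genes was Bub1b, a kinase of the spindle checkpoint, which was highest in VCAM1-high library 3 and then in VCAM1-negative library 3. VCAM1-high library 3 was the highest of the 8 geriatric libraries for 21 of 21 mitosis genes, 11 of 16 S-phase genes and 3 of 3 G1 cyclins.

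Against the median of the other 9 libraries, mitosis genes in middle-aged library 1 were 1.13-fold (Bub1b) to 75.1-fold (Aurkb) as high, with a median ratio of 8.07. In VCAM1-high library 3 the ratios ran from 1.60 (Bub1b) to 65.7 (Bub1), with a median of 5.23. S-phase genes had median ratios of 3.76 in middle-aged library 1 and 1.97 in VCAM1-high library 3, from 1.04 and 0.807 (both Pcna) to 30.6 and 20.2 (both Uhrf1). The libraries thus had like mitosis levels, with a median ratio of middle-aged library 1 to VCAM1-high library 3 of 1.16, whereas S-phase genes were higher in middle-aged library 1, with a median ratio of 1.74. Gins2, a subunit of the GINS complex of the helicase, had a ratio of 3.39 and Tyms, thymidylate synthase, 3.02, while Ccnb1, cyclin B1, had 0.701 and Plk1, a mitotic kinase, 0.500. The libraries were singled out after their values were seen, and these ratios carry no test.

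**Figure D3:**
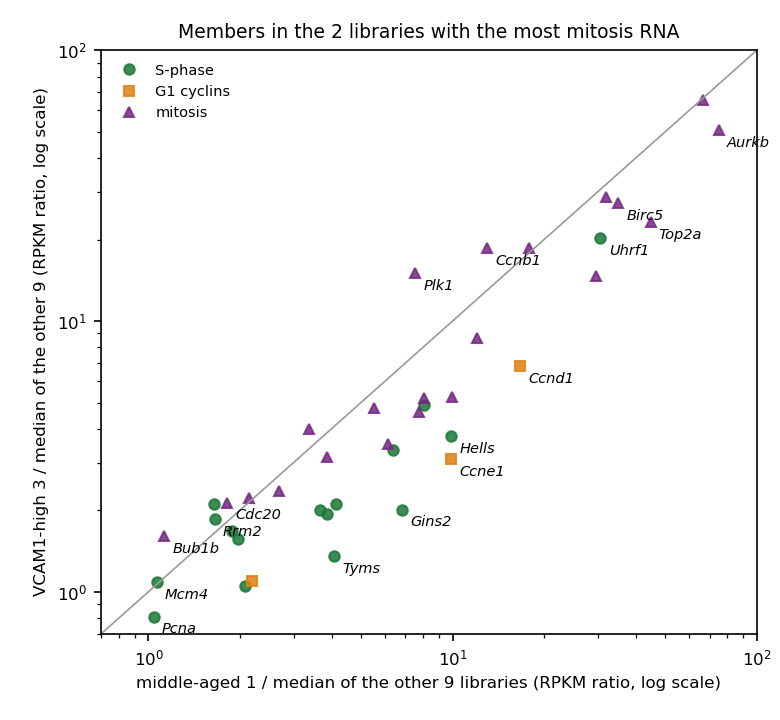
Each point is 1 of the 40 genes: its RPKM in middle-aged library 1 (x axis) and in VCAM1-high library 3 (y axis), each divided by the median of the other 9 libraries, on log axes, with the line of equal ratios. Mitosis genes (triangles) lie about the line at up to 75.1 and 65.7, and most S-phase genes (circles) lie below it.

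Markers of other cells differed between these libraries. The summed RPKM of 7 macrophage markers was 907 in VCAM1-high library 3, against 33.1 and 35.5 in the other VCAM1-high libraries, 73.8 and 94.2 in the VCAM1-low and 111 to 240 in the VCAM1-negative libraries. All 7 reached 1 RPKM there, with Lyz2, a lysozyme of macrophages and neutrophils, at 591 RPKM. Its 5 neutrophil markers summed to 52.3, the highest of the 11 libraries, and their part in the high mitosis level of that library was not tested.

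In middle-aged library 1 the macrophage sum was 38.0, between the 23.5 and 152 of the other middle-aged libraries, the neutrophil markers were all listed at 0, and the 7 endothelial markers summed to 14.7 against 23.7 and 145. Its mitosis sum, 117, was above the 102 of VCAM1-high library 3. Myog, the transcription factor of differentiating myoblasts, was at 390 RPKM in that library against 8.57 and 6.31 in the other middle-aged libraries, and Mymk, a myoblast fusion protein, at 47.6 against 0.986 and 0.660. In VCAM1-high library 3 Myog was at 59.6 RPKM, against 4.63 and 11.6 in its group, and in VCAM1-negative library 3, where mitosis genes summed to 22.5, it was at 57.0. The part of differentiating cells in these results was not tested.

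Among S-phase genes, Pcna, the sliding clamp of DNA polymerases, had the highest mean level. It was at 149, 114 and 108 RPKM in the middle-aged, 137, 152 and 116 in the VCAM1-high, 143 and 175 in the VCAM1-low, and 132, 182 and 153 in the VCAM1-negative libraries. The groups overlapped, and Pcna in VCAM1-high library 3 was below the other libraries of its group, unlike the mitosis genes there.

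Rrm2, the small subunit of ribonucleotide reductase, which makes deoxynucleotides, was at 65.5, 84.985 and 40.2 RPKM in the middle-aged and 49.1, 39.7 and 73.7 in VCAM1-high libraries. It was at 40.7 and 32.0 in the VCAM1-low and 33.6, 27.6 and 21.7 in the VCAM1-negative libraries. All 3 VCAM1-negative libraries were below all 6 middle-aged and VCAM1-high ones. Its highest library was middle-aged library 2, not library 1, unlike the mitosis genes. Among the geriatric libraries Rrm2 was highest in VCAM1-high library 3, as the mitosis genes were. Rrm1, the large subunit, was at 47.8, 48.7 and 27.9 RPKM in the middle-aged, 27.5, 19.2 and 38.0 in the VCAM1-high, 20.5 and 19.3 in the VCAM1-low, and 24.2, 20.4 and 30.4 in the VCAM1-negative libraries. Its groups overlapped except that both VCAM1-low libraries were below the middle-aged ones.

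The helicase subunit Mcm7 was at 48.2, 18.8 and 25.7 RPKM in the middle-aged, 25.5, 34.9 and 43.1 in the VCAM1-high, 22.6 and 37.2 in the VCAM1-low, and 22.2, 33.9 and 44.5 in the VCAM1-negative libraries. Mcm4, another subunit, was at 24.3 to 45.0 RPKM over the 11 libraries and highest in VCAM1-negative library 3. Mcm6 was at 54.0 RPKM in middle-aged library 1 and 11.3 to 27.1 elsewhere. The 6 subunits form 1 ring but did not all share a pattern. Mcm2, Mcm3, Mcm5 and Mcm6 were highest in middle-aged library 1 and next in VCAM1-high library 3. Mcm7 was also highest in middle-aged library 1 but next in VCAM1-negative library 3, and Mcm4 followed neither order.

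Tyms was at 7.35, 1.99 and 2.83 RPKM in the middle-aged, 2.17, 1.49 and 2.43 in the VCAM1-high, 2.57 and 1.32 in the VCAM1-low, and 1.18, 1.48 and 1.80 in the VCAM1-negative libraries. The VCAM1-negative libraries were all below the middle-aged ones. Uhrf1, which guides maintenance DNA methylation behind the fork, was at 11.2 RPKM in middle-aged library 1 and 7.41 in VCAM1-high library 3 and at 0.157 to 1.31 in the other 9. Of the other S-phase genes, the helicase loader Cdc6 ranged from 0.179 to 2.60 RPKM, the chromatin remodeller Hells from 0.346 to 5.15, Gins2 from 1.21 to 13.8, Cdt1 from 3.88 to 12.7 and the clamp loader subunit Rfc4 from 8.44 to 30.3.

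Ccnd1, cyclin D1, was at 18.5, 5.34 and 20.7 RPKM in middle-aged libraries. It was at 1.86, 1.75 and 7.58 in the VCAM1-high, 0.801 and 0.706 in the VCAM1-low, and 1.11, 0.499 and 0.951 in the VCAM1-negative libraries. The VCAM1-low and VCAM1-negative libraries were all below the other 6, and VCAM1-high overlapped middle-aged only through its library 3. Middle-aged library 3, with a lower mitosis sum than library 1, had the highest level.

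Ccne1, cyclin E1, was at 34.5, 8.14 and 9.49 RPKM in the middle-aged, 2.76, 3.49 and 10.8 in the VCAM1-high, 3.56 and 2.78 in the VCAM1-low, and 3.57, 3.07 and 3.401 in the VCAM1-negative libraries. Again VCAM1-high overlapped middle-aged through its library 3 alone. Ccne2, cyclin E2, was at 8.89, 3.32 and 2.97 RPKM in the middle-aged, 4.13, 4.29 and 4.45 in the VCAM1-high, 3.14 and 4.27 in the VCAM1-low, and 4.004, 4.06 and 4.30 in the VCAM1-negative libraries. Except for middle-aged library 1, it lay between 2.97 and 4.45 in all libraries.

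**Figure D4:**
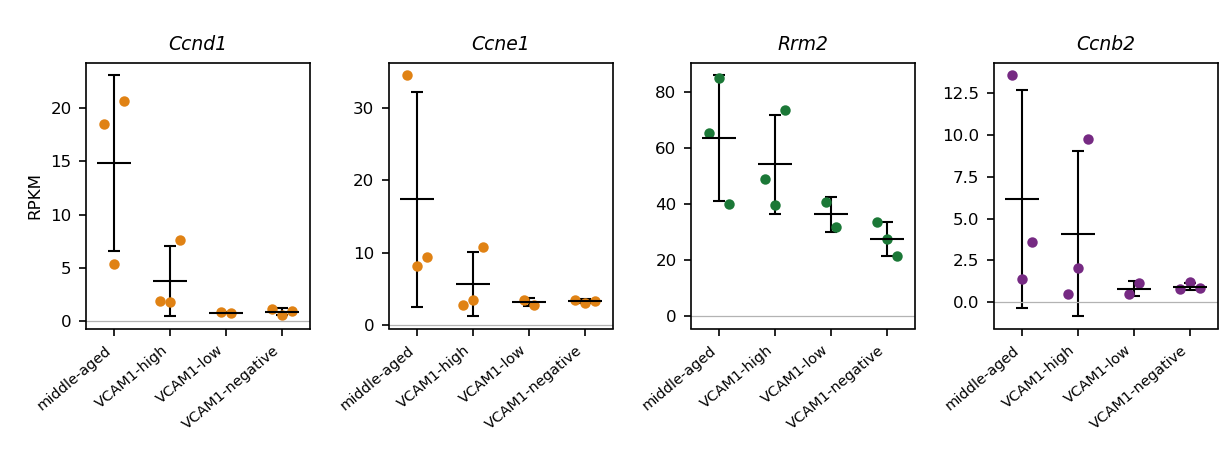
RPKM of Ccnd1, Ccne1, Rrm2 and Ccnb2 in each library by group, with the group mean (wide bar) and SD (error bars) of 3 libraries, or 2 for VCAM1-low. VCAM1-negative libraries of Ccnd1, at 0.499 to 1.11, all lie below the middle-aged ones, at 5.34 to 20.7.

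Among mitosis genes, Cdc20 had the highest mean level. It was at 12.7, 2.54 and 7.49 RPKM in the middle-aged, 4.51, 8.25 and 14.97 in the VCAM1-high, 5.57 and 7.74 in the VCAM1-low, and 4.67, 9.41 and 7.02 in the VCAM1-negative libraries. Kif20a, a kinesin of cytokinesis, was at 8.84, 4.22 and 4.55 RPKM in the middle-aged, 4.06, 3.30 and 7.77 in the VCAM1-high, 3.94 and 3.18 in the VCAM1-low, and 3.01, 3.12 and 2.43 in the VCAM1-negative libraries. All VCAM1-negative libraries of Kif20a were below all middle-aged and VCAM1-high ones, which Cdc20 did not show.

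Ccna2, cyclin A2, which acts in S phase and early mitosis, was at 8.74, 1.74 and 3.07 RPKM in the middle-aged, 2.21, 3.82 and 7.16 in the VCAM1-high, 2.64 and 3.26 in the VCAM1-low, and 1.90, 2.27 and 2.15 in the VCAM1-negative libraries. Ccnb2 was at 13.6, 1.37 and 3.57 RPKM in the middle-aged, 0.487, 2.06 and 9.75 in the VCAM1-high, 0.481 and 1.13 in the VCAM1-low, and 0.773, 1.20 and 0.818 in the VCAM1-negative libraries. Both VCAM1-low and VCAM1-negative libraries of Ccnb2 lay below all middle-aged ones, and those of Ccna2 overlapped them.

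Aurkb and Birc5, the kinase and survivin of the chromosomal passenger complex, showed wide gaps between libraries. Aurkb was at 8.85, 0.296 and 1.98 RPKM in the middle-aged and 0.051, 0.251 and 5.97 in VCAM1-high libraries, at 0.118 and 0.148 in the VCAM1-low, and at 0.040, 0.094 and 0, as listed, in the VCAM1-negative libraries. Birc5 was at 12.6, 0.0923 and 1.44 RPKM in the middle-aged and 0.617, 1.23 and 9.73 in VCAM1-high libraries, and at 0.190 to 0.469 in the 5 VCAM1-low and VCAM1-negative libraries. Ccnb1, the main mitotic partner of CDK1, was at 7.43 RPKM in VCAM1-high library 3 and at 0.0432 in library 1 of that group.

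The remaining mitosis genes, Bub1b apart, also had these as their highest libraries. In middle-aged library 1 and VCAM1-high library 3, Top2a, the topoisomerase that untangles chromosomes, was at 6.54 and 3.397 RPKM, and Cdk1, the mitotic kinase, at 3.81 and 2.27; in the other 9 they were at most 1.42 and 0.928. The proliferation antigen Mki67 was at 1.98 and 0.976 RPKM and at most 0.472 elsewhere, and Ube2c, an enzyme of the anaphase-promoting complex pathway, at 5.53 and 5.78 against at most 2.90. Prc1, a midzone protein, was at 8.36 and 7.18 against at most 3.25, and Aurka, a centrosomal kinase, at 3.58 and 3.71 against at most 2.24. The spindle genes Tpx2, Nusap1 and Kif11 reached 4.60, 2.41 and 2.26 RPKM, the checkpoint kinase Bub1 1.28, Plk1 3.64, and the kinetochore genes Cenpe and Cenpf 0.661 and 0.597. Bub1b ranged from 1.21 to 4.52 RPKM.

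Of the 40 genes, 37 passed the filter: all 16 S-phase genes, all 3 G1 cyclins and 18 of 21 mitosis genes. Mki67, Cenpe and Cenpf did not pass. Of those that did, Cdc6, Hells, Cdk1, Bub1, Plk1, Kif11 and Nusap1 passed through middle-aged library 1 and VCAM1-high library 3 alone. Tests were limma fits on log2(RPKM + 1) with p adjusted by Benjamini-Hochberg over all genes tested. Fold changes are on that scale, which understates changes of low genes. The comparisons share libraries, so that their values stand side by side and are not independent.

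Between VCAM1-negative and VCAM1-high geriatric cells, 0 of the 37 genes tested passed an adjusted p of 0.05 in limma, and 2 (Rrm2 and Ccnd1) had an unadjusted p under 0.05. The share of all genes called in either direction was 0%, and 755 of 11568 had an unadjusted p under 0.05; limma was the only tool run. With the replicate number as a block over the 8 geriatric libraries, 3.26% of all genes were called lower, and again 0 of the 37. In that fit the lowest limma adjusted p of the 37 was 0.067, for Rrm2. The unadjusted p there was under 0.05 for 5 of the 37 and for 22.9% of all genes. Without the block, Rrm2 differed by -0.92 ± 0.30 (SE, limma adjusted p 0.485) and Ccnd1 by -1.15 ± 0.50 (0.731). The 95% interval for Rrm2 was -1.58 to -0.26 and that for Pcna -0.23 to 0.63.

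Values were lower in VCAM1-negative cells for 33 of 37 genes, beside 60.8% of all genes tested, with medians of -0.25 for S-phase and -0.56 for mitosis genes, against -0.073 for all genes tested. Without VCAM1-high library 3 these medians were 0.033 and -0.034, so that the library decided them. Libraries did not overlap, with VCAM1-negative the lower, for Rrm2, Ccnd1, Birc5 and Kif20a, and this held for 8.08% of all genes tested. Birc5 passed the filter only through middle-aged and VCAM1-high libraries.

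Between VCAM1-high and middle-aged cells, 0 of 37 genes were called by limma and 2, Ccnd1 and Ccne1, had an unadjusted p under 0.05, as did 1724 of all genes. The share of all genes called lower was 0.13%. Ccnd1 differed by -1.77 ± 0.50 (limma adjusted p 0.137) and Ccne1 by -1.37 ± 0.50 (0.242). With the replicate number as a block over 11 libraries, Ccnd1 was called, at -1.77 ± 0.36 (limma adjusted p 0.0273), and 2.81% of all genes were called lower. The numbers did not clearly match libraries 1 and 2 between these groups. Without VCAM1-high library 3, Ccnd1 was called without a block (adjusted p 0.0316).

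S-phase genes had a median difference of -0.15 and mitosis genes of -0.18 between VCAM1-high and middle-aged cells, against 0.036 for all genes. Leaving out middle-aged library 1 moved them to 0.46 and 0.23, and leaving out VCAM1-high library 3 to -0.48 and -0.65, so that their sign rested on single libraries. Libraries did not overlap for 0 of 37 genes, in either direction, against 6.36% of all genes with VCAM1-high lower and 13.8% with it higher.

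VCAM1-negative cells differed from middle-aged cells in 3 of the 37 genes, all lower; 7.38% of all genes were called lower and 7.06% higher. Ccnd1 fell by 2.92 ± 0.50 on the log2 scale (limma adjusted p 0.00876), Ccne1 by 1.79 ± 0.50 (0.0404) and Rrm2 by 1.13 ± 0.30 (0.0338). These are 1 of 16 S-phase genes, 2 of 3 G1 cyclins and 0 of 18 mitosis genes tested. The share of members called was near the share over all genes. The call of Ccnd1 was kept without any single library, whereas Ccne1 was called in 4 of 11 such fits and Rrm2 in 7 of 11. The limma adjusted p of Rrm2 was 0.0976 and 0.0894 without middle-aged library 1 or 2 and 0.0984 and 0.0924 without VCAM1-negative library 2 or 3. That of Ccne1 was 0.110 and 0.0531 without middle-aged library 1 or 3, 0.0522 and 0.0521 without VCAM1-low library 1 or 2, and 0.0723, 0.119 and 0.0837 without VCAM1-negative library 1, 2 or 3.

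Values were lower for 30 of the 37 genes, beside 51.6% of all genes tested, with medians of -0.40 for S-phase and -0.71 for mitosis genes, against -0.021 for all genes. Without middle-aged library 1 these medians were 0.37 and -0.30. Libraries did not overlap, with VCAM1-negative lower, for 10 genes, against 20.3% of all genes: Rrm2, Tyms, Uhrf1, Ccnd1, Ccne1, Ccnb2, Aurkb, Plk1, Kif20a and Tpx2. Of these, Uhrf1, Aurkb, Plk1 and Tpx2 passed the filter only through middle-aged and VCAM1-high libraries, so that the filter favoured their direction. None of the 37 was higher without overlap, against 18.7% of all genes. Aurkb differed by -1.69 ± 0.75 (limma adjusted p 0.139), with a 95% interval of -3.33 to -0.047, and Ccnb2 by -1.49 ± 0.70 (0.160).

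**Figure D5:**
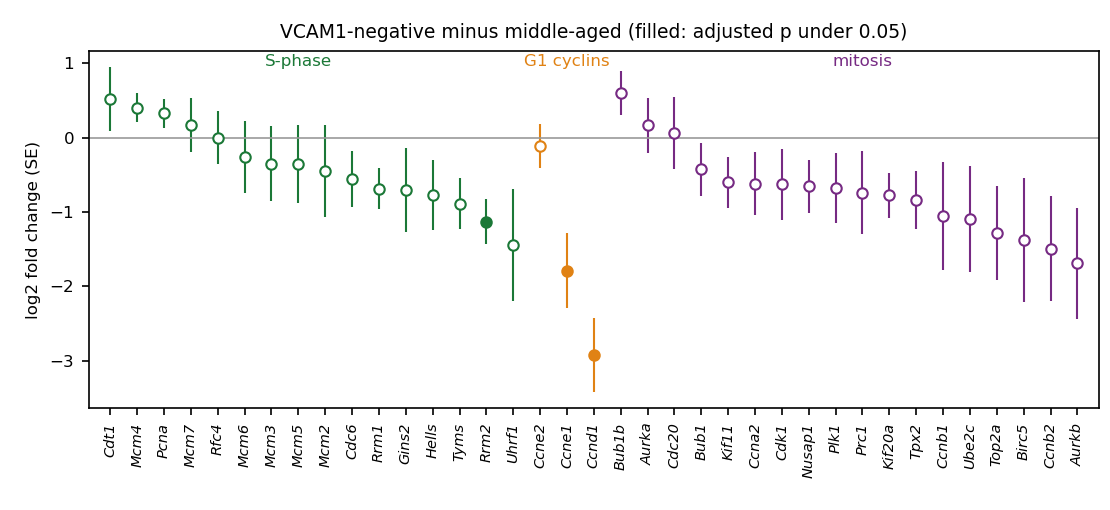
Log2 fold change of VCAM1-negative against middle-aged cells (points) with SE (bars) for the 37 genes tested, by role; filled points passed an adjusted p of 0.05 in limma. The filled points are Rrm2 at -1.13, Ccne1 at -1.79 and Ccnd1 at -2.92.

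Markers of other cells moved with this comparison. The 6 myofibre markers summed to 592 to 6208 RPKM in VCAM1-negative and 120 to 264 in middle-aged libraries, and 2 of the 4 erythroid markers were in the table and summed to 149 to 510 against 4.36 to 128. The lymphoid markers summed to 6.79 to 8.55 RPKM against 1.12 to 3.59. Of these, Cd79a alone reached 1 RPKM, at 6.31 to 7.92 against 1.12 to 3.09, and the other lymphoid markers stayed below 1 RPKM. The neutrophil markers summed to 2.099 to 17.7 against 0 to 0.714, and the muscle stem cell markers, Vcam1 among them, to 1047 to 1576 against 1823 to 2705. The activated myoblast markers summed to 636 to 794 RPKM against 142 to 627. Among them, Myod1, a factor of activated myoblasts, was at 622 to 725 RPKM against 135 to 231, whereas Myog, at 11.9 to 57.0 against 6.31 to 390, and Mymk, at 1.92 to 12.0 against 0.660 to 47.6, overlapped. Their part in the results was not tested.

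VCAM1-low cells, with 2 libraries, differed from middle-aged cells in Ccnd1 alone, at -2.99 ± 0.56 (limma adjusted p 0.0243), and 1.88% of all genes were called lower. It was not called without middle-aged library 1 (adjusted p 0.0766) or 3 (0.0579) or without VCAM1-low library 1 (0.0765) or 2 (0.230) by limma. For the mean of the 3 geriatric groups against middle-aged, Ccnd1 fell by 2.56 ± 0.42 (limma adjusted p 0.00578) and Ccne1 by 1.67 ± 0.42 (0.0257), and 7.81% of all genes were called lower. Ccne1 was not called without middle-aged library 1 (limma adjusted p 0.105) or VCAM1-low library 2 (0.0659), and without VCAM1-high library 3 the calls numbered 7 and added Rrm1, Rrm2, Ccnb2, Aurkb and Tpx2. Without middle-aged library 3 there were 4 calls, with Rrm1 and Rrm2 added. Over all 11568 genes, 1159 were called lower in the fit without VCAM1-high library 3 and 257 in that without middle-aged library 3. No gene of the 37 had all 8 geriatric libraries below all 3 middle-aged ones, against 4.95% of all genes. Ccnd1 was the gene that passed the F test among the 4 groups (limma adjusted p 0.0284), as did 3.32% of all genes. VCAM1-low against VCAM1-high and VCAM1-negative against VCAM1-low gave 0 calls among the 37 and 0 at an unadjusted p under 0.05; over all genes 337 and 217 were under that p.

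Other genes of the pathways were read from 3 lists. Of 37 replication genes tested, 0 rose and 1 fell in VCAM1-negative against middle-aged cells: Rpa3, the small subunit of the single-strand binding protein RPA (-1.32 ± 0.32, limma adjusted p 0.0237). Of 34 other mitosis genes, 1 rose, Pttg1 or securin (1.24 ± 0.38, limma adjusted p 0.0489), and 1 fell, Cks1b, a small partner of cyclin-dependent kinases (-1.29 ± 0.32, 0.0274). Median differences were -0.21 and -0.67 for the lists, beside -0.021 for all genes.

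Of 19 genes of G1 control, 5 fell and 2 rose in the same comparison, in which 7.38% of all genes fell and 7.06% rose. The genes that fell were Ccnd3 (-1.54 ± 0.28, limma adjusted p 0.0106), a D cyclin, its kinase Cdk4 (-1.37 ± 0.31, 0.0202), Cdk2 (-0.94 ± 0.28, 0.0477), the factor E2f3 (-1.19 ± 0.21, 0.00893) and its partner Tfdp1 (-1.30 ± 0.29, 0.0203). Lin52, a MuvB subunit, rose by 1.75 ± 0.41 (limma adjusted p 0.0230), and the transcription factor Myc by 0.82 ± 0.21 (0.0289). The list's median was -0.020, near the -0.021 of all genes. By limma without a block, none of the 3 lists had a call in VCAM1-negative against VCAM1-high or in VCAM1-high against middle-aged cells. In VCAM1-low against middle-aged cells E2f3 fell by 0.96 ± 0.23 (limma adjusted p 0.0453) and Ccnd3 by 1.38 ± 0.32 (0.0408), and both passed the F test (0.0352 and 0.0397). For the mean of the 3 geriatric groups against middle-aged, 0 replication genes were called; 2 other mitosis genes rose (Cdc25b and Pttg1) and 1 fell (Cks1b), and the same 2 G1 genes rose and the same 5 fell as in VCAM1-negative cells. Over all genes, 8.04% rose and 7.81% fell in that comparison. At an unadjusted p under 0.05, VCAM1-negative against VCAM1-high gave 1, 0 and 0 genes of the replication, mitosis and G1 lists, and VCAM1-high against middle-aged 1, 2 and 7. With the replicate block over the 8 geriatric libraries, Rpa3 (-0.95 ± 0.16, limma adjusted p 0.0261) and Cdk4 (-0.66 ± 0.093, 0.0178) fell in VCAM1-negative against VCAM1-high cells. With the block over 11 libraries, 1 other mitosis gene rose (Pttg1), and 3 G1 genes fell (E2f3, Ccnd3 and Cdk4) and 2 rose (Lin52 and Myc) in VCAM1-high against middle-aged cells. Over all 11568 genes, 482 rose and 325 fell there. Without both middle-aged library 1 and VCAM1-high library 3, VCAM1-negative against middle-aged cells gave 2 higher and 1 lower replication gene, 1 higher and 0 lower mitosis genes, and 1 higher and 3 lower G1 genes by limma. Of all genes, 386 were called higher and 342 lower in that fit.

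Ccnd3 was at 314, 156 and 260 RPKM in the middle-aged, 89.6, 102 and 169 in the VCAM1-high, 94.6 and 84.3 in the VCAM1-low, and 81.1, 72.0 and 87.6 in the VCAM1-negative libraries. As with Ccnd1, VCAM1-high library 3 was the geriatric library nearest the middle-aged ones. Cdk4 was at 225, 104 and 141 RPKM in the middle-aged and 62.0, 43.2 and 69.3 in the VCAM1-negative libraries, which did not overlap. E2f3 was at 2.46, 2.01 and 1.60 RPKM in the same middle-aged and 0.374, 0.199 and 0.375 in the VCAM1-negative libraries, again without overlap.

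Middle-aged library 1 and VCAM1-high library 3 were the 2 highest libraries for 34 of the 41 other mitosis genes (82.9%), 19 of the 40 other replication genes (47.5%) and 6 of the 22 genes of G1 control (27.3%), beside 6.44% of all genes tested. The mitosis genes had the highest share of the roles both here and among the 40 genes. Because these libraries were singled out after their mitosis levels were seen, the choice favoured that ranking, which carries no test. Within a role, ratios of middle-aged library 1 to the median of the other 9 overlapped between promoters with and without the motif. They ran from 1.65 to 9.87 with and 1.04 to 30.6 without E2F letters among S-phase genes, and from 1.13 to 44.8 with and 3.37 to 66.8 without CHR among mitosis genes.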

How the data were processed

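The libraries of sorted muscle stem cells were analysed as deposited by the authors, as RPKM in a single table. STAR 2.7.5b, Bowtie2 2.1.0, SAMtools 0.1.19 and cutadapt 3.1 are named, with the build GRCm39, per the submitters' processing notes; for counter, annotation and gene lengths nothing is stated in the sources used here. The depth of each library was chosen to bring the most low RPKM values within 0.1 of a whole read. At that depth 66.2 to 71.1% of cases did so. Because the rest did not, reads were not recovered and no count test was run. A share of 20% by chance would hold only for a depth fixed beforehand, and depths are estimates.

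Genes with 1 RPKM in at least 2 of 11 libraries were fitted in R 4.3.3 with limma 3.58.1 on log2(RPKM + 1). The fit had 4 group means and eBayes with trend, with Benjamini-Hochberg over 11568 genes and a threshold of 0.05. The same fit was also run on simulated independent libraries. These could not show the effect of libraries standing apart or of shared deviations of same-numbered libraries. Alternatives were a pseudocount of 0.1, no filter, a filter of a mean of 5 RPKM, equal-sum and median-ratio scaling, a replicate block, and leaving out libraries. Same-numbered libraries deviated together between VCAM1-high and VCAM1-negative (r 0.403 to 0.581, 3 pairs), VCAM1-high and VCAM1-low (0.486 to 0.509) and VCAM1-low and VCAM1-negative (0.523 to 0.569). Between middle-aged and VCAM1-high r was 0.211 to 0.554. There, middle-aged library 2 went with VCAM1-high library 1 (0.331) as much as with library 2 (0.332), so the numbers did not clearly match libraries 1 and 2. Middle-aged and VCAM1-negative libraries did not deviate together by number (-0.025 to 0.081).

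Values per library are given for genes called in a main comparison, the F test or a block fit, the 3 highest of each role, and genes without overlap in at least 2 main comparisons; a few others were named after their values were seen. The 40 genes, pathway lists and marker lists were chosen with earlier results of these data known. The other marker lists (lymphoid, fibro-adipogenic, mural and glial) summed to 1.12 to 8.55, 364 to 879, 9.51 to 47.5 and 0.719 to 6.78 RPKM.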

Additional observations from a re-analysis of the deposited data

How the results depend on the processing

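Leaving out each library in turn moved the number of the 37 genes called to 0 to 1 in VCAM1-high against middle-aged (1 without VCAM1-high library 3), 1 to 3 in VCAM1-negative against middle-aged, 0 to 2 in VCAM1-low against middle-aged, 1 to 7 for the geriatric mean against middle-aged (7 without VCAM1-high library 3) and 0 to 1 in the F test. Over all 11568 genes, the same fits called 2 to 80 lower in VCAM1-high and 123 to 948 in VCAM1-negative against middle-aged. With both VCAM1-low libraries kept, 25 to 421 were called lower in VCAM1-low against middle-aged. The geriatric mean gave 201 to 1159 lower, and 39 to 614 genes passed the F test. The median of S-phase genes ranged from -0.48 to 0.46 in VCAM1-high and from -0.82 to 0.37 in VCAM1-negative against middle-aged. Without a filter on low values, which tests more genes, the VCAM1-negative, VCAM1-low and mean comparisons and the F test gave 1, 0, 1 and 0 calls. Of the 18479 genes then tested, 405, 34 and 532 were called lower and 39 passed the F test. Without all libraries numbered 3, the VCAM1-low and mean comparisons gave 2 and 4, and the S-phase median in VCAM1-high against middle-aged was -0.73. In that fit 132 and 471 of 11545 genes were called lower in the VCAM1-low and mean comparisons. Without both middle-aged library 1 and VCAM1-high library 3, chosen after seeing the data, VCAM1-high against middle-aged gave 1 call (Ccne1), VCAM1-low 2 and the F test 2, and the S-phase median in VCAM1-negative was 0.37. Over all 11568 genes, 44 and 146 were called lower in the VCAM1-high and VCAM1-low comparisons, and 138 passed the F test. A filter of a mean of 5 RPKM, which leaves Cdc20 alone among mitosis genes, gave a mitosis median of 0.067 in VCAM1-negative against middle-aged. With a pseudocount of 0.1, S-phase genes exceeded mitosis genes by a mean of 3.18 in place of 2.26.

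With a replicate block over 11 libraries, VCAM1-high against middle-aged gave 1 call, Ccnd1, and in VCAM1-negative against middle-aged, where the numbers do not pair the libraries, Tyms was also called (limma adjusted p 0.0450). Over all 11568 genes, that fit called 325 and 2007 lower in the same comparisons. Scaling changed the sign of 1 median, that of S-phase genes in VCAM1-negative against VCAM1-low (0.018 with equal-sum scaling in place of -0.0037). Where no value above shows it, the cause was not tested. Of 655 values under alternatives, 584 were counted as unchanged. For a gene this meant the same sign and side of the threshold, and for a count of calls a similar number. For a median or mean level it meant a move smaller than the spread between replicates, which the libraries standing apart widened. A median could thus change sign and count as unchanged. No called gene changed sign. The S-phase medians against middle-aged did, as given above. So did those of S-phase genes in VCAM1-negative against VCAM1-high and of mitosis genes in VCAM1-high against middle-aged. Leaving out single libraries also changed the sign of the S-phase and mitosis medians in VCAM1-negative against VCAM1-low. The same held for the mitosis median in VCAM1-low against VCAM1-high. Depth limits the mitosis genes most: with lengths from another annotation, Aurkb came to an estimated 2, 4 and 0 reads in the VCAM1-negative libraries.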
